A study of Mus musculus with 8 samples.

Results

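Fatty acid oxidation and ketogenesis were followed in mouse liver through 31 genes: Ppara, which encodes the nuclear receptor PPAR-alpha, and genes of the same pathway that are known as its targets. They were chosen by gene symbol, and 31 of 31 were found and tested in both tables the authors deposited, which hold 23634 genes (the larger table) and 21201 genes (the smaller table). The study sequenced RNA from livers of mice lacking Cpeb4 (Cpeb4 KO), which encodes a protein that binds mRNAs and sets their poly(A) tail length and translation, and of wild-type mice (WT). Its 8 libraries form 4 groups of 2, namely total RNA of flash-frozen liver and RNA of endoplasmic reticulum (ER) purified with a kit from whole livers, each from KO and WT mice. An overnight fast is stated for the mice whose ER was purified. The feeding state behind the total liver RNA, and the strain, age and sex of the mice, were not given in the sources used here.

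During fasting, fatty acids released from fat tissue activate PPAR-alpha in hepatocytes, and the receptor, bound to DNA with RXR, raises genes that take fatty acids into mitochondria and peroxisomes and break them down. Mitochondria shorten acyl-CoA chains by beta-oxidation, and the acetyl-CoA formed is turned into ketone bodies, which the liver exports as fuel. Peroxisomes begin the breakdown of very long chains, and the Cyp4a enzymes of the ER oxidise the far end of the chain, which is called omega-oxidation.

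Each deposited table holds 1 comparison of 4 libraries, with a mean of normalized reads and a log2 fold change per gene, and neither names its RNA preparation, so neither is called total liver or ER here. Its fold changes are moderated estimates, pulled towards 0. Each deposited mean is a sum of whole read numbers of the 4 libraries, weighted by their size factors, so the reads of each library could be worked back from its digits and the deposited standard error. In the larger table this succeeded for 26 of the 31 genes and 99.1% of all tested genes, in the smaller for 28 and 98.6%. The libraries are lettered a and b on one side of the comparison and c and d on the other, and the letters match no label of a sample.

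Cpeb4 had the smallest p of both tables, and its sign was read as lower in the knockout, so a and b are read as KO and c and d as WT. All directions below rest on that reading. Its normalized reads were 506 and 580 in a and b against 1511 and 1657 in c and d in the larger table, and 193 and 225 against 634 and 689 in the smaller. The recovered depth was 15937282 to 27988657 reads per library in the larger table and 16775275 to 34862012 in the smaller, over the resolved genes. Each library of the smaller table was given the letter of the larger-table library it resembled most, by its deviations from each gene's mean. Over 9301 genes, r was 0.56 to 0.84 within a letter and -0.45 to -0.07 between letters, across genes, which are not independent replicates. The choice of letters by r fixed that r would be higher within a letter, and deviations from a mean push r between letters down. The size of r within a letter still means that the tables cannot be treated as independent. A like order of letters in both tables is therefore not independent support. Of 10 hepatocyte markers 9 were found and tested in each table, with Alb at a deposited mean of 1307220 in the authors' larger table. All 4 tested erythroid markers of the 6 listed were below 0 in both of the authors' deposited tables, with medians of -0.30 and -0.40. The normalized reads summed over the 5 and 4 listed genes with recovered reads were 9080 to 11228 on the KO side and 12655 to 13959 on the WT side of the larger table, and 10139 to 13109 against 15418 to 17837 in the smaller. Kupffer cell and macrophage markers were below 0 for 7 of 8 genes in the authors' deposited larger table and for 8 of 8 in the smaller, and none passed. Their summed normalized reads overlapped, with 5454 and 5106 (KO side) against 6520 and 5103 (WT side) in the larger table. In the smaller they were 3656 and 3101 against 4192 and 3445. Endothelial markers were below 0 for 3 of 7 tested genes in each deposited table. Cholangiocyte markers were below 0 for 2 of 3 tested genes in each deposited table. Adipocyte markers were below 0 for 0 of 2 (larger table) and 1 of 2 (smaller table), and lymphocyte markers for 1 and 2 of 2. Mean sums of cholangiocyte and adipocyte markers were higher on the KO side in both tables, but the libraries of the sides overlapped. Summed lymphocyte reads were 194 and 200 (KO side) against 228 and 210 (WT side) in the larger table. In the smaller they were 179 and 162 against 182 and 228. Stellate cell markers were below 0 for 6 of 7 and 5 of 6 tested genes, with none called, and their summed normalized reads were 3096 to 3126 on the KO side and 3392 to 3582 on the WT side of the larger table, and 1772 to 1870 against 2082 to 2148 in the smaller. The part of these differences in the results below was not tested.

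None of the 31 genes passed the authors' Wald test at an adjusted p of 0.05 in either deposited table. Of all tested genes, 0.296% (larger table) and 0.266% (smaller table) passed. At an unadjusted p under 0.05 the authors' deposited larger table had 3 of the genes (3.62% of all tested genes) and the smaller had 5 (4.11%). Limma on the recovered reads also called 0 in each table, where it called 0.0142% and 0% of all genes, and had 4 and 2 of them at an unadjusted p under 0.05 (7.15% and 6.91% of all genes). The moderated fold changes of the 31 genes lay between -0.25 and 0.27 in the authors' deposited larger table and between -0.39 and 0.21 in the smaller. The medians of these deposited values were -0.024 and -0.034, against -0.0008 and 0.0008 over all tested genes. Without moderation, the genes with recovered reads ran from -1.78 to 0.48 and from -1.79 to 0.38, with Acot3 lowest in both tables. In bulk RNA, fewer cells of a type and less RNA per cell cannot be told apart. In each of the deposited tables, 19 of 31 genes were below 0, against 50.4% and 49.7% of all tested genes.

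**Figure D1:**
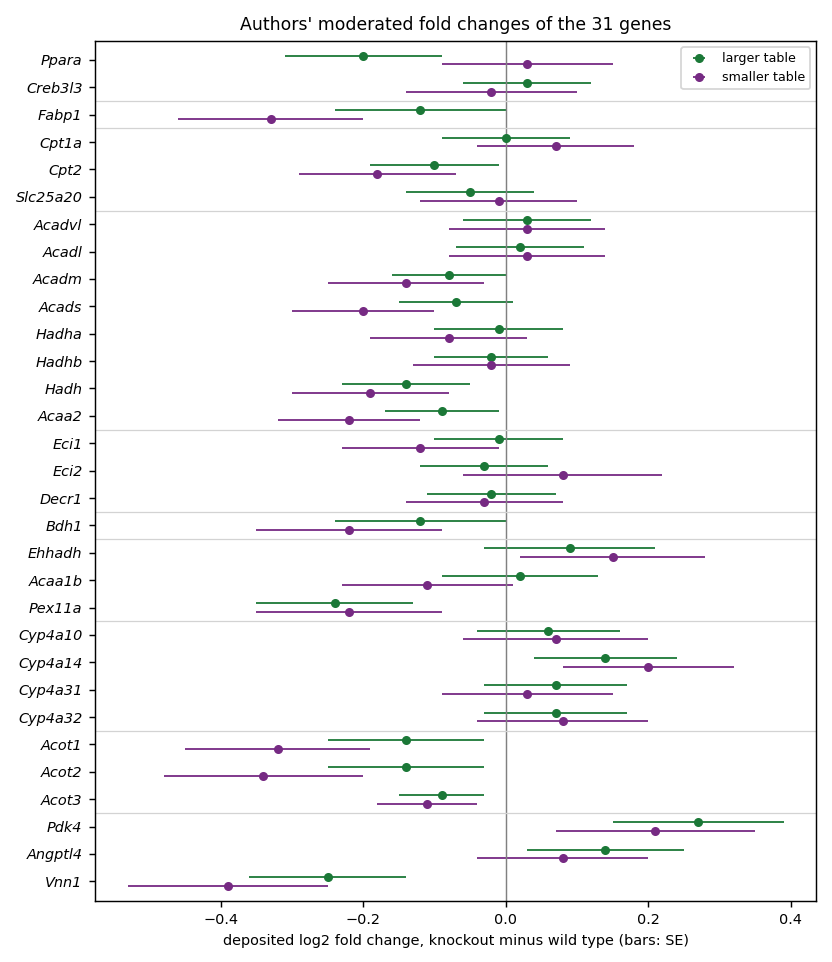
The authors' log2 fold change of each of the 31 genes, knockout minus wild type, with bars of 1 SE, in the larger (green) and smaller (purple) table; grey lines separate the roles of the genes. These moderated values lie between -0.39 and 0.27, with Vnn1 lowest and Pdk4 highest in both tables. Without moderation Acot3 was lowest among the genes with recovered reads.

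The libraries themselves showed how the genes varied. In the larger table the KO libraries both lay below the WT libraries for 8 of 26 genes, where 19.5% of all genes did, and both above for 1, where 18.2% did. In the smaller table these counts were 7 and 2 of 28, where the shares of all genes were 20.5% and 18.5%. Library a was the lowest of the 4 for 16 of 26 genes in the larger table (31.3% of all genes) and for 13 of 28 in the smaller (27.1%). Library d, on the WT side, was the lowest for 7 of 26 (23.6% of all genes) and for 12 of 28 (19%), nearly as often as a in the smaller table. Library c was the highest for 20 of 26 (23.9% of all genes) and for 17 of 28 (24.5%). The order with a lowest and c highest was seen in 15 of 26 genes (11.2% of all genes) and in 9 of 28 (8.3%).

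**Figure D2:**
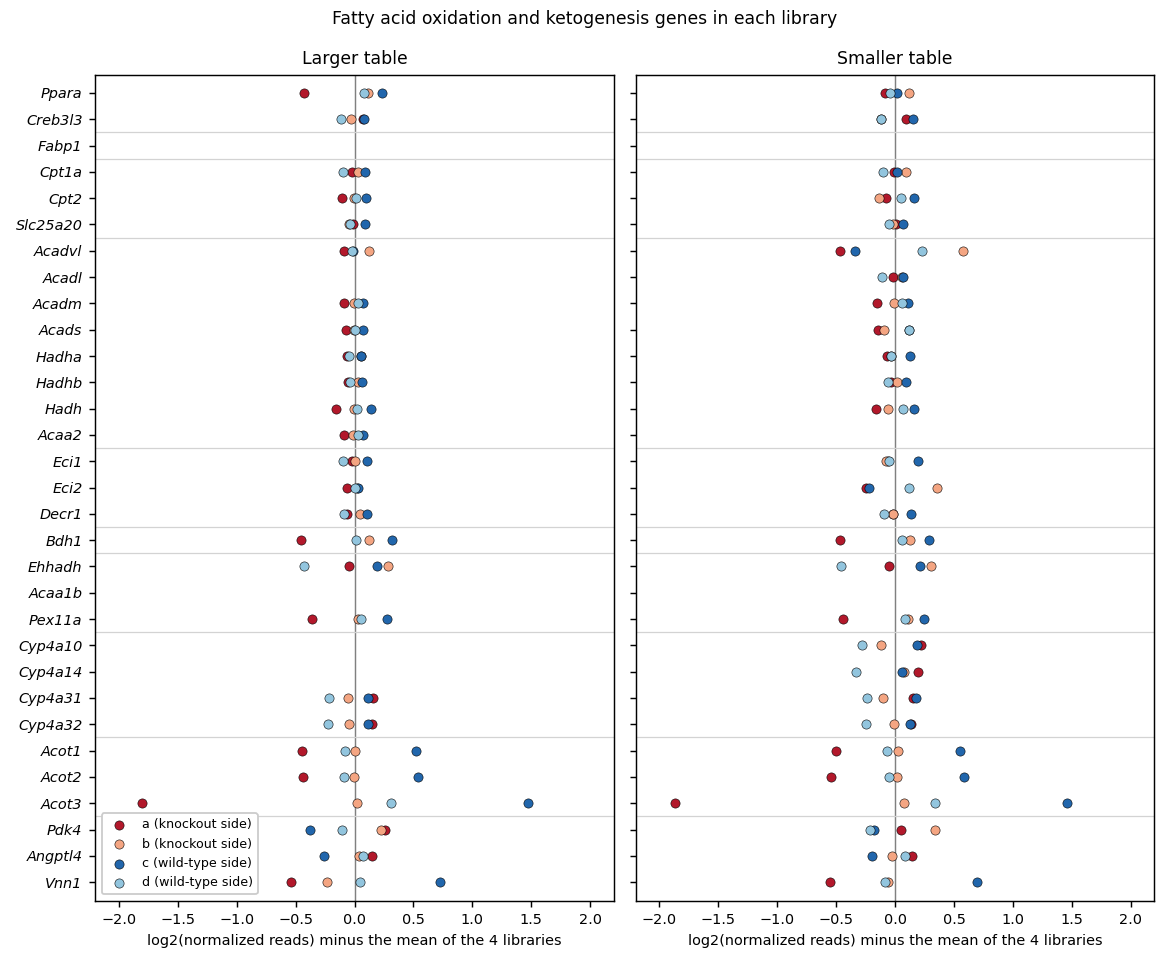
Normalized reads of each gene in libraries a and b (red, KO side) and c and d (blue, WT side), as log2 distance from the mean of the 4 libraries, in each table; genes whose reads were not recovered have no points. Most mitochondrial enzymes lie close to 0, while the Acot genes and Vnn1 are lowest in a and highest in c.

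Of the 31 genes, 2 encode transcription factors, Ppara and Creb3l3, and neither passed the test. Ppara had 2693 and 3911 normalized reads in a and b of the larger table and 4257 and 3827 in c and d. Library a stood low there, and the 2 sides overlapped. The unmoderated difference in the larger table was -0.31, -0.05 without a and -0.58 without b. In the smaller table it had 1761 and 2029 against 1890 and 1812, with no such gap. The authors' deposited log2 fold change was -0.20 ± 0.11 (SE) for the larger table, with an adjusted p of 1, and 0.03 ± 0.12 for the smaller, with 0.999 (DESeq2). Creb3l3 encodes an ER-bound transcription factor that is cut free in fasting and acts with PPAR-alpha. It had 0.03 ± 0.09 and -0.02 ± 0.12 in the authors' deposited tables, and its libraries ran from 9532 to 10903 and from 8303 to 10003 normalized reads.

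Fabp1, the liver fatty acid binding protein that carries fatty acids in the hepatocyte cytosol, had the highest mean per length of the 31 genes, 211295 and 460895 normalized reads per kb of exon in the larger and smaller table. The authors' deposited log2 fold change was -0.12 ± 0.12 for the larger table and -0.33 ± 0.13 for the smaller (unadjusted p = 0.283 and 0.0106, adjusted p = 1 and 0.674, DESeq2). Its reads per library were not recovered in either table. Promoters in RefSeq (GRCm38.p6, 250 bases before to 50 after the start) were matched for 24 of the 31 genes, as 27 windows. They were searched on both strands for AGGNCANAGGNCA, the direct repeat of the site AGGNCA with 1 base between that PPAR-alpha and RXR are known to bind. Fabp1 alone among the 24 had an exact match, and 0.38% of all 32851 promoters of that length held it. The half-site AGGTCA, which the repeat can contain, was in 7 of the 27 windows (25.9%) and in 16.3% of all promoters. The stretch before the Fabp1 gene is shown because it carries that match, in capitals, on the minus strand, 67 to 55 bases before the RefSeq start. It is chr6:71199629-71199826 on the plus strand of GRCm38 and ends 1 base before the annotated gene (GENCODE M21).
Fabp1: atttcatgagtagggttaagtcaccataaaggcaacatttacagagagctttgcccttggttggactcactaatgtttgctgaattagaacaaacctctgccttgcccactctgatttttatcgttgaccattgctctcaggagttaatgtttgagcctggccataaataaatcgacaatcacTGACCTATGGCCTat
A match describes these letters only, and no binding was measured.

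The carnitine shuttle, which carries long fatty acids into the mitochondrion, is made of 3 of the genes, and none passed. Cpt1a, its rate-limiting outer membrane enzyme, had 24946 and 25924 normalized reads in a and b against 27029 and 23684 in c and d of the larger table, and 14703 and 15797 against 14986 and 13825 in the smaller. The sides overlapped in both tables. Without moderation the difference was 0.01 (95% interval -0.23 to 0.25, limma) and 0.08 (-0.20 to 0.37), and the authors' deposited values were 0.00 ± 0.09 and 0.07 ± 0.11. Cpt2, the inner membrane enzyme that hands the acyl group back to CoA, was lower in both KO libraries of each table, with 9190 and 9864 against 10591 and 9983 in the larger and 13165 and 12622 against 15537 and 14327 in the smaller. Its difference was -0.11 (95% interval -0.31 to 0.08, limma) and -0.21 (-0.49 to 0.07), and it did not pass in either table. Slc25a20, the carnitine-acylcarnitine carrier, had -0.05 ± 0.09 and -0.01 ± 0.11 in the authors' deposited tables.

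The 8 enzymes of the mitochondrial spiral kept within -0.22 and 0.03 in the authors' deposited tables, and none passed. Their chain of work runs from the acyl-CoA dehydrogenases for very long, long, medium and short chains (Acadvl, Acadl, Acadm and Acads) to the trifunctional protein (Hadha and Hadhb), the short-chain hydroxyacyl-CoA dehydrogenase Hadh and the thiolase Acaa2. Of these, 6 of 8 were below 0 in each deposited table. Acadm had 42648 and 45067 normalized reads in a and b against 47557 and 46180 in c and d of the larger table, and 56512 and 62457 against 67903 and 65356 in the smaller. Both KO libraries were below both WT libraries in each, by -0.10 (95% interval -0.33 to 0.14, limma) and -0.17 (-0.55 to 0.22). Acads had 9149 and 9615 against 10111 and 9681, and 10312 and 10664 against 12330 and 12371. Its difference was -0.08 (95% interval -0.26 to 0.11, limma) and -0.24 (-0.49 to 0.02), again without overlap and without passing.

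Hadh had 20732 and 22955 against 25427 and 23465 in the larger table and 30684 and 33012 against 38398 and 35965 in the smaller, the KO side lower without overlap. The authors' deposited fold changes were -0.14 ± 0.09 and -0.19 ± 0.11 (adjusted p = 1 and 0.999, DESeq2). Acaa2 had -0.09 ± 0.08 and -0.22 ± 0.10 in the authors' deposited tables (unadjusted p = 0.276 and 0.0375), with 49551 and 52281 against 55386 and 53793 normalized reads in the larger table and none recovered in the smaller. Hadha and Hadhb, whose genes lie head to head on chromosome 5, had -0.01 ± 0.09 and -0.02 ± 0.08 in the authors' deposited larger table and -0.08 ± 0.11 and -0.02 ± 0.11 in the smaller. Acadl had 0.02 ± 0.09 and 0.03 ± 0.11 in these deposited tables.

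Acadvl differed from the other dehydrogenases in how its libraries spread. In the larger table it had 8805, 10203, 9304 and 9251 normalized reads in a, b, c and d. In the smaller it had 1659, 3411, 1813 and 2675, so that b and d, which are on opposite sides, stood above a and c. Its difference there was 0.11 with a 95% interval of -0.65 to 0.87 (limma), the widest of the spiral, and it was 0.63 without a, -0.41 without b, -0.17 without c and 0.39 without d. Eci2, an enoyl-CoA isomerase, had the same order in the smaller table, with 857, 1305, 873 and 1105, against 2851, 3027, 3046 and 2984 in the larger. Of the exon bases of Acadvl, 42.9% overlap Dvl2 on the other strand, and the strand setting of the counting was not given in the sources used here, and 33.2% of its 31-base words occur in another gene, so its reads are uncertain.

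The auxiliary enzymes for unsaturated chains, Eci1, Eci2 and the dienoyl-CoA reductase Decr1, lay between -0.03 and -0.01 in the authors' deposited larger table and between -0.12 and 0.08 in the smaller. Bdh1, the mitochondrial enzyme that makes beta-hydroxybutyrate from acetoacetate, had 10987 normalized reads in a, 16409 in b, 18857 in c and 15234 in d of the larger table. In the smaller it had 12772, 19353, 21607 and 18394. Library a was lowest and c highest in both, while b lay above d, so the sides overlapped. Its difference was -0.34 (95% interval -0.78 to 0.11, limma) in the larger table and -0.34 (-0.83 to 0.14) in the smaller, and the authors' deposited values were -0.12 ± 0.12 and -0.22 ± 0.13. Without a the difference was -0.05 and -0.04, without c -0.18 and -0.23, and without b -0.63 and -0.64.

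Among the peroxisomal genes, Pex11a, which encodes a membrane protein of peroxisome division, had 3913 and 5122 normalized reads in a and b against 6099 and 5230 in c and d of the larger table, without overlap. In the smaller it had 2940 and 4294 against 4725 and 4239, with b just above d. The authors' deposited fold changes were -0.24 ± 0.11 and -0.22 ± 0.13 (unadjusted p = 0.0243 and 0.0797, adjusted p = 1 and 0.999, DESeq2). The unmoderated difference of -0.34 and -0.33 was -0.14 and -0.06 without a, and -0.53 and -0.61 without b. Ehhadh, the peroxisomal bifunctional enzyme, was lowest in d and highest in b, with 51422, 64555, 60480 and 39439 in a to d of the larger table and 62202, 79667, 74429 and 46764 in the smaller. It had 0.09 ± 0.12 and 0.15 ± 0.13 in the authors' deposited tables, and its unmoderated difference of 0.24 and 0.25 was -0.07 and -0.08 without d, 0.07 and 0.08 without b, and 0.55 and 0.59 without c. Acaa1b, a peroxisomal thiolase, had 0.02 ± 0.11 and -0.11 ± 0.12 there, and 50.1% of its 31-base words also occur in another gene, so its value is uncertain.

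The 4 omega-oxidation genes were all above 0 in both deposited tables and none passed. Cyp4a14, Cyp4a10, Cyp4a31 and Cyp4a32 lie in 1 cluster on chromosome 4 and encode fatty acid omega-hydroxylases. Cyp4a14 had 96270 and 88454 normalized reads in a and b against 87818 and 66948 in c and d of the smaller table, where the KO side was higher without overlap. Its difference was 0.27 (95% interval -0.20 to 0.74, limma), and the authors' deposited values were 0.14 ± 0.10 (larger table) and 0.20 ± 0.12 (smaller table). Without the low library d the difference in the smaller table was 0.07, and without c it was 0.46. Cyp4a10 had 71395 and 56515 against 69591 and 50387 in the smaller table, with overlap, and 0.06 ± 0.10 and 0.07 ± 0.13 in the authors' deposited tables. Cyp4a31 had 21712 and 18772 against 21194 and 16846 in the larger table and 5183 and 4350 against 5284 and 3960 in the smaller. Cyp4a32 had 33725 and 29486 against 33024 and 26080, and 9962 and 9014 against 9929 and 7680. Library d was the lowest in both tables for Cyp4a31 and Cyp4a32, whose sides overlapped. For Cyp4a14 and Cyp4a10 it was the lowest in the smaller table, and their reads in the larger were not recovered.

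How far these genes can be told apart is seen in their coding sequence. The first 90 bases of the last coding exon are shown, 5′ to 3′ on each gene's own strand, from GENCODE M21 transcripts (GRCm38), with capitals where a gene differs from Cyp4a32. They lie at chr4:115621434-115621523 (plus strand), chr4:115577936-115578025 (plus), chr4:115532531-115532620 (plus) and chr4:115487222-115487311 (minus), in the order printed.
Cyp4a32: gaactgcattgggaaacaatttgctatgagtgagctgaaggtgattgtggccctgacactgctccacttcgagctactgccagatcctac
Cyp4a31: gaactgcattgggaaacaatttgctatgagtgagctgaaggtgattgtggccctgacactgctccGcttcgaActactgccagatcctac
Cyp4a10: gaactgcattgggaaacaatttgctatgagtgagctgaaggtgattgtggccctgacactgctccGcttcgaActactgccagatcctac
Cyp4a14: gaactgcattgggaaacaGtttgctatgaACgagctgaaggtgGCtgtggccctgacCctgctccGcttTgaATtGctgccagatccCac
Cyp4a31 and Cyp4a10 differ from Cyp4a32 at 2 of the 90 bases and Cyp4a14 at 12. Over whole transcripts 62.8% of the 31-base words of Cyp4a32 occur in another gene, 44.9% of Cyp4a10, 32.0% of Cyp4a31 and 2.0% of Cyp4a14. How reads that fit several genes were counted was not given in the sources used here, so the values of Cyp4a10, Cyp4a31 and Cyp4a32 are uncertain and that of Cyp4a14 is the least affected.

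Among the resolved genes of the 31, the acyl-CoA thioesterase gene Acot3 spread most among the libraries, in both tables. Acot1 acts in the cytosol, Acot2 in mitochondria and Acot3 in peroxisomes, and each releases free fatty acid from acyl-CoA. Acot3 had 329 normalized reads in a, 1170 in b, 3182 in c and 1427 in d of the larger table, and 438, 1681, 4373 and 2014 in the smaller. The highest library was 9.66 and 9.99 times the lowest, where the median over all genes was 1.2 and 1.26 times. Both KO libraries were below both WT libraries in each table, with b and d close together.

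The moderated and plain values of Acot3 lay far apart. Without moderation its difference was -1.78 (95% interval -3.12 to -0.43, limma) in the larger table and -1.79 (-3.19 to -0.39) in the smaller (adjusted p = 0.688 and 0.695). The authors' deposited fold changes were -0.09 ± 0.06 and -0.11 ± 0.07 (adjusted p = 1 and 0.999, DESeq2). Leaving out library a brought the difference to -0.86 and -0.82, and leaving out c to -1.20 and -1.23. Without b it was -2.69 in the larger table (limma adjusted p = 0.0467) and -2.76 in the smaller (0.0537), and without d it was -2.36 (0.0704) and -2.35 (0.00479). Those fits set a lone library against a pair and assume that it varies like the others, and limma also called unchanged genes in simulated data. With all 4 libraries limma did not call Acot3 in either table.

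Acot1 had 4585, 6283, 8977 and 5910 normalized reads in a to d of the larger table and 4041, 5834, 8382 and 5450 in the smaller. Acot2 had 2626, 3541, 5157 and 3342, and 1781, 2626, 3882 and 2499. In both genes a was lowest, c was highest, and b stood above d, so the sides overlapped. Their differences were -0.44 and -0.45 in the larger table and -0.48 and -0.53 in the smaller (limma adjusted p = 0.741, 0.739, 0.753 and 0.723). Single libraries moved them: without c Acot1 had -0.14 and -0.17 and Acot2 -0.13 and -0.21 in the larger and smaller table, and without a Acot1 had -0.21 and -0.21 and Acot2 -0.23 and -0.25. Without b they had -0.67 and -0.74, and -0.66 and -0.81, and without d -0.74 and -0.79, and -0.76 and -0.84. In the authors' deposited smaller table Acot1 had -0.32 ± 0.13 and Acot2 -0.34 ± 0.14 (unadjusted p = 0.0179 and 0.0124, adjusted p = 0.818 and 0.724, DESeq2), and in the larger both had -0.14 ± 0.11.

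The 3 genes lie in 1 cluster on chromosome 12 and share sequence. Acot4, a further thioesterase of the pathway list, lies between Acot1 and Acot3 at GRCm38 84038379 to 84048601, and was named after its values were seen. It had 388, 621, 947 and 622 normalized reads in a to d of the larger table, with a lowest and c highest, and 51.1, 100, 97.8 and 89.7 in the smaller, with a lowest and b highest. The first 90 bases of the last coding exon of Acot1, Acot2 and Acot3 are shown as above, with capitals where a gene differs from Acot1. They lie on the plus strand of GRCm38 at chr12:84016780-84016869, chr12:83992502-83992591 and chr12:84058421-84058510.
Acot1: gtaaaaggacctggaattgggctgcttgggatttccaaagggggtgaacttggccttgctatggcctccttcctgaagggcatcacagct
Acot2: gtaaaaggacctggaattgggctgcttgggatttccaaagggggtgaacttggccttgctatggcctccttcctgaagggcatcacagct
Acot3: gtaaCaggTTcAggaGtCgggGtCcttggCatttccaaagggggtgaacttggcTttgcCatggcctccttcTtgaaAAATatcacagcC
Acot2 differs from Acot1 at 0 of these bases and Acot3 at 17. Over whole transcripts 22.8% of the 31-base words of Acot1, 37.8% of Acot2 and 25.2% of Acot3 occur in another gene. Some reads of Acot1 and Acot2 in particular may therefore not be told apart. Their like order across libraries cannot be taken as independent, and the part of shared reads in it was not tested. Of the exon bases of Acot3, 20.6% overlap other annotated genes.

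**Figure D3:**
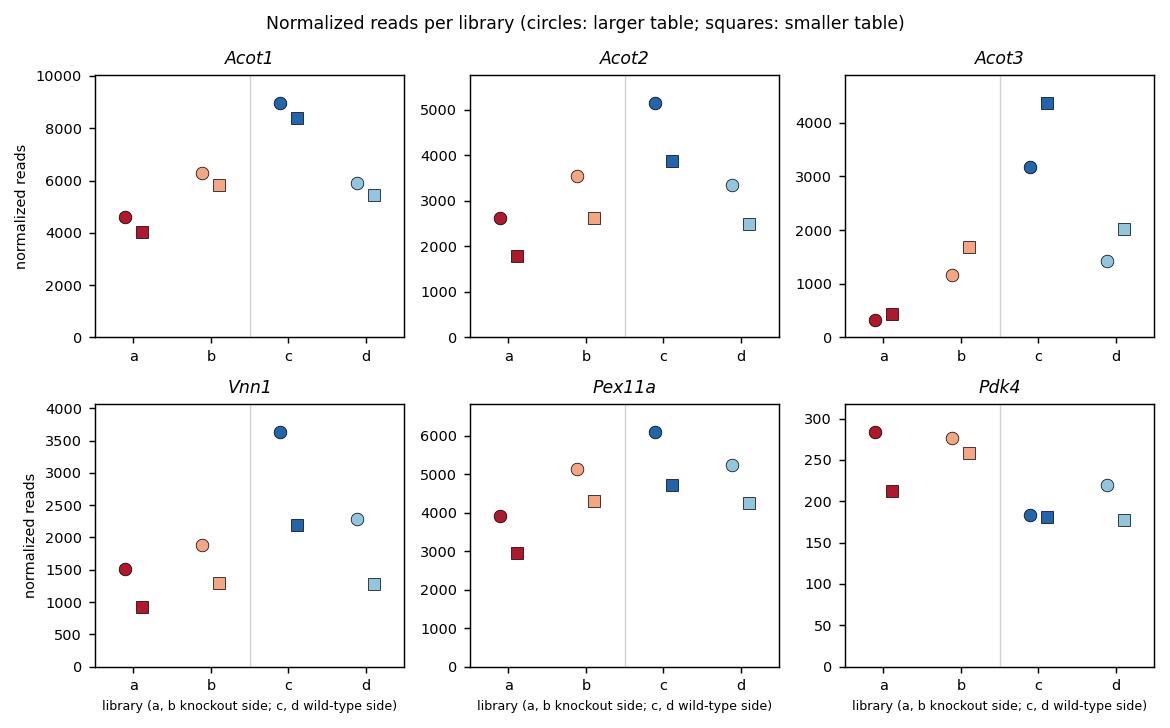
Normalized reads per library of Acot1, Acot2, Acot3, Vnn1, Pex11a and Pdk4, chosen after their values were seen, in the larger (circles) and smaller (squares) table, with linear axes from 0. Acot3 runs from 329 to 3182 and from 438 to 4373, with a lowest and c highest, and Pdk4 is higher in a and b than in c and d in both tables.

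Of the other known targets, Vnn1 was lowest and Pdk4 highest in fold change in both deposited tables. Vnn1 encodes a pantetheinase at the cell surface, and its gene lies at GRCm38 chromosome 10, 23894688 to 23905343, plus strand. It had 1516 and 1880 normalized reads in a and b against 3636 and 2282 in c and d of the larger table, without overlap, and 923 and 1300 against 2191 and 1276 in the smaller, where b lay just above d. Its difference was -0.77 (95% interval -1.26 to -0.29, limma adjusted p = 0.609) and -0.61 (-1.22 to 0.00, adjusted p = 0.713). The authors' deposited values were -0.25 ± 0.11 and -0.39 ± 0.14 (unadjusted p = 0.0286 and 0.00537, adjusted p = 1 and 0.487, DESeq2).

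The Vnn1 difference was -0.43 and -0.22 without library c. Without d it was -1.11 (larger table, limma adjusted p = 0.00498) and -1.0 (smaller table, 0.0283). No other leave-one-out fit called any of the 31 genes, apart from those given for Acot3. Among all genes the fits without b called 0.527% and 0.243% in the larger and smaller table, and those without d 0.214% and 0.33%.

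Pdk4 encodes the kinase that switches off pyruvate dehydrogenase when fatty acids are burned, and its gene lies at GRCm38 chromosome 6, 5483351 to 5496309, minus strand. It had 284 and 277 normalized reads in a and b against 183 and 220 in c and d of the larger table, and 212 and 259 against 181 and 177 in the smaller. Both KO libraries were above both WT libraries in each table. The difference was 0.48 (95% interval 0.16 to 0.80, limma adjusted p = 0.609) and 0.38 (0.01 to 0.76, adjusted p = 0.713). With a library left out it stayed between 0.35 and 0.61 in the larger table and between 0.24 and 0.53 in the smaller. The authors' deposited values were 0.27 ± 0.12 and 0.21 ± 0.14 (unadjusted p = 0.0246 and 0.133, adjusted p = 1 and 0.999, DESeq2). Angptl4, a secreted inhibitor of lipoprotein lipase, had 2397 and 2228 against 1808 and 2280 in the larger table and 1598 and 1421 against 1269 and 1535 in the smaller. There c was the lowest library and the sides overlapped, with 0.14 ± 0.11 and 0.08 ± 0.12 in the authors' deposited tables.

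A further 54 genes of the pathway were listed, 49 of which were tested in each table. Ppargc1a, the coactivator PGC-1alpha that works with PPAR-alpha, was the only called gene among them in either table (0.0917% and 0.163% of all tested genes were called higher). It had 786 and 640 normalized reads in a and b against 384 and 454 in c and d of the larger table, and 646 and 540 against 275 and 310 in the smaller. The KO side was higher without overlap, and the authors' deposited fold changes were 0.51 ± 0.12 and 0.67 ± 0.13 (adjusted p = 0.00648 and 0.000667, DESeq2). Limma on all 4 libraries put it at 0.76 and 1.01 and did not call it (adjusted p = 0.294 and 0.441). With a library left out, limma called it without b in both tables (adjusted p = 0.0471 and 0.0478, where 0.527% and 0.243% of all genes were called). It also did so without d in the smaller (adjusted p = 0.012, 0.33% of all genes), against an adjusted p of 0.0508 in the larger. Over these fits its difference stayed between 0.61 and 0.91 in the larger and between 0.88 and 1.14 in the smaller. Of the 49 genes, 28 and 27 were below 0 in the deposited larger and smaller tables, with medians of -0.01 and -0.04.

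The other genes at the ends of that list did not pass. Acsl4, a long-chain acyl-CoA synthetase, had 0.26 ± 0.11 and 0.44 ± 0.12 in the authors' deposited tables (adjusted p = 0.801 and 0.0665, DESeq2). Cyp4f15, a P450 of another omega-hydroxylase family, had 0.11 ± 0.09 and 0.13 ± 0.12, and Abcd3, a peroxisomal fatty acid transporter, had 0.06 ± 0.09 and 0.13 ± 0.11 in the same deposited tables. At the low end of the authors' deposited larger table stood Abcd2, another peroxisomal transporter, at -0.28 ± 0.12, Acsl5, a further acyl-CoA synthetase, at -0.19 ± 0.09 and Cyp4a12a, a P450 of the Cyp4a family, at -0.18 ± 0.08. In the authors' deposited smaller table these had -0.18 ± 0.14, -0.14 ± 0.11 and -0.19 ± 0.11.

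Fgf21, a hormone that the fasting liver secretes, was at the low end of the authors' deposited smaller table with -0.34 ± 0.13, and had -0.17 ± 0.10 in the larger. Its libraries had 40.7, 66.7, 134 and 87.4 normalized reads in a to d of the smaller table and 40.5, 104, 153 and 87.8 in the larger. As in Acot1, Acot2 and Acot3, a was lowest and c highest, and the unmoderated difference of -1.04 and -0.82 (smaller and larger table) was -0.69 and -0.15 without a. Crat, carnitine acetyltransferase, had -0.25 ± 0.11 and -0.18 ± 0.10 and Bdh2, a cytosolic dehydrogenase, -0.23 ± 0.13 and -0.21 ± 0.12 in the authors' deposited smaller and larger tables.

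Neighbouring pathways gave other counts in the deposited tables, and no difference between lists was tested. Of 27 tested oxidative phosphorylation genes 1 (larger table) and 12 (smaller table) were below 0 in the authors' deposited tables, and none passed. Of 17 genes of the tricarboxylic acid cycle 2 and 6 were below 0, with 1 and 0 called, and of 17 fatty acid synthesis genes 16 and 12 were below 0, with 2 and 1 called in the authors' deposited tables. Of all tested genes 50.4% and 49.7% were below 0 and 0.296% and 0.266% were called.

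Levels per length spanned a wide range. By mean normalized reads per kb of merged exons, Fabp1 was followed in the larger table by Cyp4a14 at 51061, Cyp4a10 at 45587, Acaa1b at 42748 and Acaa2 at 34797. In the smaller Fabp1 was followed by Acaa2 at 66625, Acaa1b at 54126, Cyp4a14 at 32631 and Cyp4a10 at 29385. Pdk4 was lowest, at 68.6 and 59. The tables were normalized separately, so a ratio of levels between them is a description of the deposited means. That ratio, larger over smaller, was highest for Cyp4a31 at 4.18, Acadvl at 3.93, Cyp4a32 at 3.34 and Eci2 at 2.88, and lowest for Fabp1 at 0.458.

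**Figure D4:**
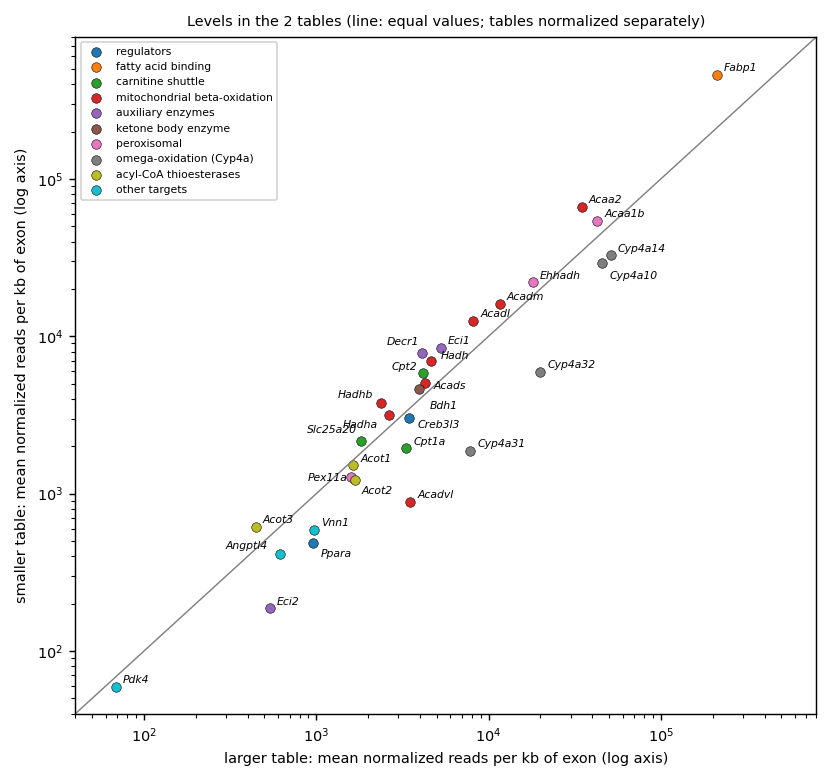
Mean normalized reads per kb of merged exons of each gene in the larger (x) and smaller (y) table, both on log axes and coloured by role, with a line of equal values. Fabp1 is highest and Pdk4 lowest on both axes, and Cyp4a31, Cyp4a32, Acadvl and Eci2 lie farthest below the line.

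The genotype difference itself was compared between the tables gene by gene, as the smaller table's fold change minus the larger's, with a z test adjusted over 11604 genes. None of the 31 genes differed at an adjusted p under 0.05, where 0.0172% of all genes did. None had an unadjusted p under 0.05 either, and the share of all genes at that limit was not computed. Over all genes z had an SD of 0.535, narrower than the test assumes, so that absence says little about these genes. The test treats the tables as independent, which they are not. Among the 31 genes the differences of Ppara, Fabp1 and Acot2 were the largest in size, at 0.23 ± 0.16, -0.20 ± 0.17 and -0.20 ± 0.18 (SE). With limma on the difference within each lettered pair of libraries, none of the 25 genes with reads in both tables passed, and the smallest adjusted p among them was 0.819.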

How the data were processed

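The authors deposited 2 DESeq2 result tables, per the file headers. STAR 2.3.0e, DESeq2 1.6.3 and mm10 are named per the submitters' processing notes. The gene annotation, the tool that counted reads and the strand setting were not given in the sources used here. Per the file headers, each gene has a mean signal (counts over size factors, averaged), a log2 fold change and its SE, a Wald score, a p-value and an adjusted p-value, which the authors computed. Genes were matched to GENCODE M21 (GRCm38, the assembly that mm10 names) symbols, 23484 of 23634 and 21080 of 21201.

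No column gives a library's reads. The tables print 15 digits, and genes with a single read give the weight of 1 read in each of 4 libraries and, by the sign of the fold change, its side. For each gene, whole reads that sum to the deposited mean were listed, and the set was kept whose moderated negative binomial fit gave the deposited SE within 2e-06, with the next set at least 20 times worse. Where the mean was under 1000 and left 1 candidate set, the SE, which had not been used to choose it, matched in 99.9% and 99.8% of genes. On simulated data, 700 of 700 genes (larger table) and 697 of 700 (smaller table) were resolved, with 0 wrong. The reads are therefore reconstructed values, and their libraries match no sample label. The fixed planned test was the authors' own Wald test, so it stays the main one. Limma 3.58.1 (R 4.3.3, trend, on log2 of normalized reads + 1, Benjamini-Hochberg over all resolved genes) was added after seeing the data. Its log2 differences carry no moderation of the fold change, but the + 1 slightly understates low genes. On simulated data it recovered 72% and 71% of log2 changes of 1 and 89% and 96% of changes of 2 among 100 genes each. It also called 41 (larger table) and 17 (smaller table) unchanged genes there, so its calls include false ones. The adjustment depends on how many genes change, so the recovered shares need not hold for the real data. In the real data limma called 2 genes of the larger table and 0 of the smaller. Ppargc1a, at 1.01 in the smaller table, was not called (limma adjusted p = 0.441). How many true changes limma missed in the real data is therefore not known. edgeR was planned but needs a deposited count column and was not run.

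Whether a group's 2 libraries are separate mice is not in the labels. A p-value therefore reflects only how these libraries vary, possibly for technical reasons. Of the further pathway genes, those named are the ones past the authors' test and the 3 with the largest Wald statistic in each direction in each table. Acot4 is an exception, since it was named after its values were seen. The 31 genes and all lists were chosen with earlier results of these data known. The 31-base words and exon overlaps came from GENCODE M21. Alternatives are given at the end. Python 3.11.15, numpy 2.4.6, pandas 2.3.3 and scipy 1.17.1 were used.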

Additional observations from a re-analysis of the deposited data

How the results depend on the processing

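No paired analysis was possible because the recovered libraries carry no replicate numbers of the labels, so KO and WT libraries could not be paired; only the same-lettered libraries of the 2 tables were set against each other. The count of 0 called genes per deposited table was also 0 without the filter on low means, with a mean of at least 100, without genes sharing over 25% of their 31-base words, with fold changes centred on the median of all genes, and with limma at a pseudocount of 1 or 8. The planned edgeR test was not run. Leaving out each library in turn gave 0 to 1 called in the larger table and 0 to 2 in the smaller, by limma, with Acot3 called without b and Vnn1 without d in the larger, and both without d in the smaller. The median fold change of -0.024 in the larger table ran from -0.115 to -0.008 with a library left out (not moderated), and that of -0.034 in the smaller from -0.154 to -0.017; leaving out d gave the lowest value in each, and the cause was not tested. Under the other alternatives, the unmoderated medians with all libraries included, the values ran from -0.047 to -0.023 and from -0.070 to -0.026. The count of genes differing between the tables was 0 with z divided by its SD of 0.535, with centred fold changes, with means of at least 100 and with limma on the difference between same-lettered libraries. With 2 libraries a side, a difference must exceed a spread known from few values.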
